A study of Mus musculus with 2 samples.

Results

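Kupffer cells are the resident macrophages of the liver. They sit in the sinusoids, where they take up particles, dying cells and aged red blood cells from the blood, and recycle the iron of haem. In the mouse they are told from other macrophages by the lectin Clec4f, the scavenger protein Cd5l and the complement receptor Vsig4, and their identity is known to depend on the transcription factors Nr1h3 (LXR alpha), Id3 and Spic and on Notch and BMP signals from the sinusoidal endothelium and stellate cells. When Kupffer cells are lost, blood monocytes are known to enter the liver and to take on these genes in steps.

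Kupffer cell nuclei were chosen by measured values in a single-nucleus RNA sequencing data set from frozen mouse liver, in which an area of residual tumour had been cut out of a hepatocellular carcinoma (HCC). The labels give both samples the same tissue and disease state and name no strain, age, treatment or tumour model. A nucleus was taken when its barcode had at most 8000 unique molecular identifiers (UMIs, counts of single captured transcripts) and no fewer than a floor just under the shallowest nucleus taken (893 UMIs), at most 5% mitochondrial UMIs, at least 2 UMIs of the gate genes Clec4f, Cd5l and Kcnk13 together, and fewer than 15 UMIs of the hepatocyte genes Cyp7b1, Abcb11 and Arg1 per 10000. This gave 297 of the 17169 called barcodes, or 1.73% (95% exact Clopper-Pearson interval 1.54 to 1.94), and 2.86% (2.55 to 3.20) of the 10373 barcodes within the UMI, mitochondrial and hepatocyte-gene limits. The barcodes carry no sample name, so the matrix was treated as 1 pooled sample, no test was possible, and all intervals cover counting error only.

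The 297 nuclei held 947441 UMIs, with a median of 2753 UMIs (893 to 7751) and 1735 genes per nucleus. Levels are given as UMIs per 1000000 UMIs of a group (CPM), with exact Poisson 95% intervals in brackets. They were set against 4 groups. The first was 216 macrophage nuclei without Kupffer markers, which had at least 2 UMIs of Adgre1, Csf1r, Cx3cr1 and Ccr2 together and no gate UMI, with a median of 2786 UMIs. The second was 270 sinusoidal endothelial nuclei, which had at least 2 UMIs of Stab2, Clec4g and Oit3 together and no gate UMI, with a median of 3106 UMIs, and 5 barcodes were in both of these groups. The third was all 9025 other barcodes within the limits that had no gate UMI, with a median of 2229 UMIs. The last was free RNA, the summed content of 49929 uncalled barcodes with at least 500 UMIs and fewer than any called barcode used here, with a median of 669 UMIs.

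The values that chose the nuclei are a description. Clec4f (chromosome 6, 83644542 to 83656187, minus strand, in the GENCODE annotation of GRCm38) was present in 161 nuclei, Cd5l (chromosome 3, 87357881 to 87371073, plus strand) in 189 and Kcnk13, a potassium channel gene (chromosome 12, 99964499 to 100062682, plus strand), in 145. All 3 genes were present together in 51 nuclei, and at least 2 of them in 147. At the threshold itself lay 142 nuclei with exactly 2 gate UMIs, while 68 nuclei had 3 or 4 and 87 had 5 to 29. Just outside it, 1051 barcodes within the limits had exactly 1 gate UMI.

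The name Kupffer cell was then set beside 12 marker genes. They took no part in the choice, but were listed with earlier results of these data known, so they are not an independent check. Their summed level was 1900 CPM (1813 to 1990) in Kupffer cell nuclei, against 272 CPM (240 to 308) in sinusoidal endothelial nuclei, 322 CPM (315 to 329) in the other barcodes and 452 CPM (445 to 459) in free RNA. The 11 of them other than Adgre1, which had helped to choose the macrophage nuclei, summed to 1613 CPM (1533 to 1696) in Kupffer cell nuclei and to 326 CPM (284 to 372) in macrophage nuclei without Kupffer markers. The name stands here for all 297 nuclei of the gate, and it was not borne out evenly. In 156 of them, described further on as 2 sets, these 11 genes stood at 469 CPM (390 to 558) and 482 CPM (387 to 592). That is near free RNA (438 CPM) and above macrophage nuclei without Kupffer markers (326 CPM) and the other barcodes (310 CPM). Adgre1 (F4/80), a surface receptor of mature mouse macrophages, stood at 287 CPM (254 to 323) in Kupffer cell nuclei and at 258 CPM (221 to 299) in macrophage nuclei without Kupffer markers. It stood at 5.27 CPM in sinusoidal endothelial nuclei, 11.9 CPM in the other barcodes and 14.1 CPM in free RNA.

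Vsig4, the complement receptor through which Kupffer cells bind C3-coated particles, and Timd4, a receptor for phosphatidylserine on dying cells, are both known as marks of resident Kupffer cells. Vsig4 reached 186 CPM (159 to 215) in Kupffer cell nuclei, against 8.89 CPM in macrophage nuclei without Kupffer markers, 9.5 CPM in sinusoidal endothelial nuclei, 7.18 CPM in the other barcodes and 18.7 CPM in free RNA. Timd4 reached 212 CPM (184 to 244) in Kupffer cell nuclei, against 34.1, 3.17, 4.90 and 11.5 CPM in the same 4 groups. Vsig4 was 20.9-fold (9.41 to 57.7) and Timd4 6.22-fold (4.03 to 10.0) higher than in macrophage nuclei without Kupffer markers, and neither interval reached 1. The iron exporter ferroportin, Slc40a1, stood at 536 CPM (491 to 585) in Kupffer cell nuclei and at 119 CPM in macrophage nuclei without Kupffer markers, a ratio of 4.52 (3.57 to 5.80).

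**Figure D1:**
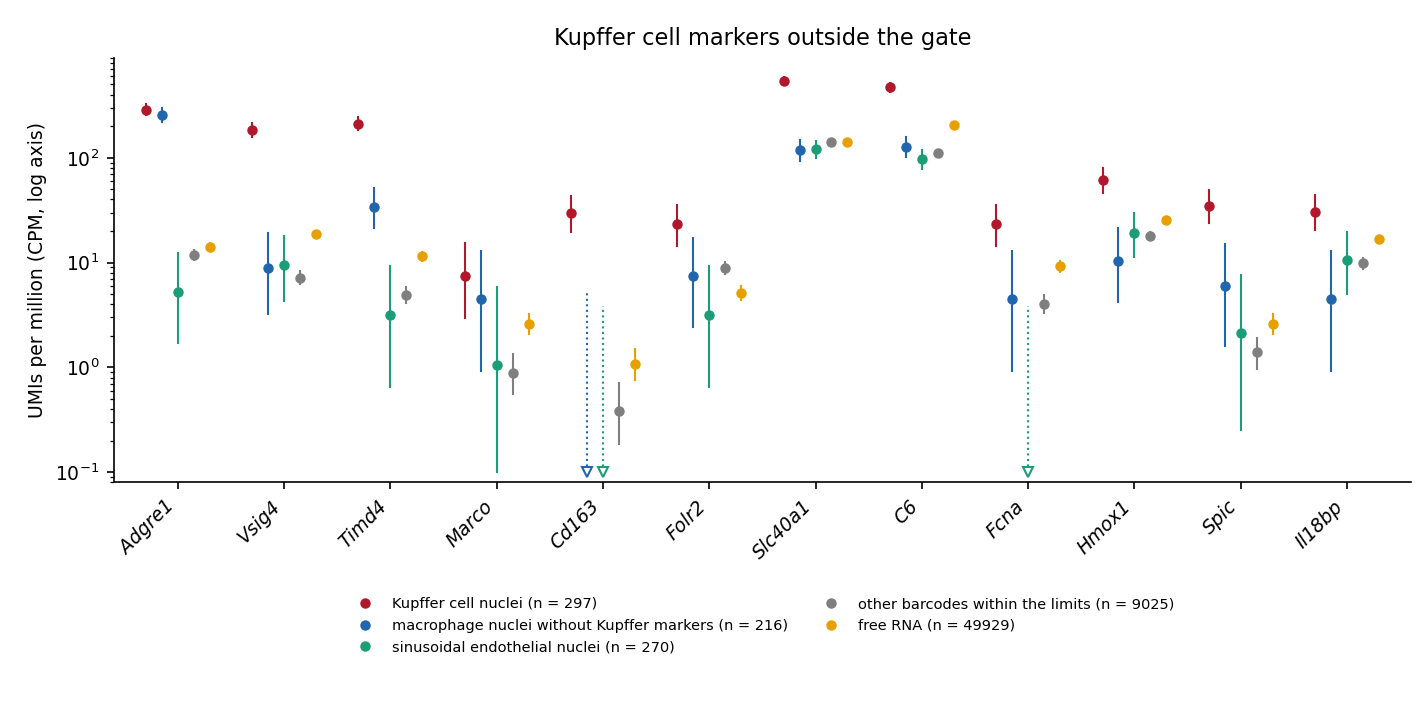
Level of the 12 Kupffer markers outside the gate (CPM, log axis) in 5 groups; points are summed levels, bars exact Poisson 95% intervals that end near the foot of the axis where they reach lower, and open triangles with dotted bars groups with 0 UMIs. Kupffer cell nuclei lie above every other group for all markers by point value, while Adgre1 is near equal in macrophage nuclei without Kupffer markers (287 and 258 CPM) and Marco is low in all groups.

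Of the remaining markers, Cd163, the haemoglobin scavenger receptor, had 28 UMIs in 15 Kupffer cell nuclei and none in the 216 macrophage nuclei without Kupffer markers. By point value it was at least 6.65-fold higher, taking 3 counts over that group as its floor. Such bounds, here and below, leave out counting error. Spic, the transcription factor of iron-recycling macrophages, stood at 34.8 CPM (24.0 to 48.9) in Kupffer cell nuclei and at 5.93 CPM in macrophage nuclei without Kupffer markers. Hmox1, which breaks down haem, stood at 61.2 CPM (46.5 to 79.1) and 10.4 CPM in the same order of groups. Complement component C6 stood at 469 CPM (426 to 514) in Kupffer cell nuclei, against 128 CPM in macrophage nuclei without Kupffer markers and 205 CPM in free RNA. Marco, a scavenger receptor widely used as a Kupffer marker, had only 7 UMIs, or 7.39 CPM (2.97 to 15.2), in Kupffer cell nuclei, against 2.62 CPM in free RNA.

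Because counts per nucleus were low, each barcode was also thinned to 500 UMIs before counting genes, and no barcode was shallower than that. The shares below count Adgre1, which had helped to choose the macrophage nuclei. At that depth at least 2 of the 12 outside markers were seen in 18.5% of Kupffer cell nuclei (14.3 to 23.4), against 2.31% of macrophage nuclei without Kupffer markers (0.756 to 5.32), 0.370% of sinusoidal endothelial nuclei, 1.12% of the other barcodes and 1.51% of free RNA barcodes. Without thinning the shares were 48.1% of Kupffer cell nuclei, 24.1% of macrophage nuclei without Kupffer markers, 14.4% of sinusoidal endothelial nuclei, 12.7% of the other barcodes and 2.63% of free RNA barcodes, at the median depths given above.

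The stretches just before the transcription starts of outside markers are shown because these genes were high in Kupffer cell nuclei summed as a group. That does not show that single nuclei held them together. They are RefSeq records of GRCm38.p6, the last 150 bases before the start, on the gene's strand. Of the 7 outside markers with at least a 5-fold ratio to macrophage nuclei without Kupffer markers or no UMI there, 6 had a record. Capitals mark GAGGAA, the core bound by the macrophage factor PU.1 (Spi1), and TGCTGA, a half-site of MAF factors, both searched on both strands.
Vsig4 (chromosome X, 96293439 to 96293588, minus strand): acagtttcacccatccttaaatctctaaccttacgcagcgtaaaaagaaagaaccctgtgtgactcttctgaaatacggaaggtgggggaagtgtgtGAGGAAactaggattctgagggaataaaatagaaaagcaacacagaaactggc
Timd4 (chromosome 11, 46810649 to 46810798, plus strand): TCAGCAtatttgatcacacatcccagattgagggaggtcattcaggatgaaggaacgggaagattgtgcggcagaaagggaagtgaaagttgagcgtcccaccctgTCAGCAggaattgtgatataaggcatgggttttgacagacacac
Spic (chromosome 10, 88683024 to 88683173, minus strand): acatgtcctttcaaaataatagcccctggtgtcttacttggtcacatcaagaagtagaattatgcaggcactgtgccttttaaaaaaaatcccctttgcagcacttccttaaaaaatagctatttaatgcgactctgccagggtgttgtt
Vsig4 held 1 GAGGAA, Timd4 held 2 TGCTGA matches on the opposite strand, and Spic held neither. Of all 32851 promoter records, 14.5% held GAGGAA and 10.1% held TGCTGA in the same 150 bases, and a match is a description of letters only. The records of Fcna, Cd163 and Il18bp held 2, 0 and 0 matches in all.

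Across all genes with a mean of at least 10 CPM over both groups, 16.3% of 10315 genes were at least 2-fold higher in Kupffer cell nuclei than in free RNA and 4.50% at least 2-fold lower, on the scale of log2(CPM + 10), and the median over all genes was 0.29. Against that background, 8 of the 11 outside markers past the filter were at least 2-fold higher and none lower (median log2 ratio 1.83), with Hmox1, Fcna and Il18bp between 0.61 and 1.00 and Marco under the filter. Of 14 transcription factors known from Kupffer cells, 9 were at least 2-fold higher than free RNA and none lower (median 1.59). Of 15 genes of immune receptor signalling, all 15 were at least 2-fold higher (median 3.51). Of 15 pan-macrophage genes, 7 were at least 2-fold higher (median 0.80), and of 16 genes of dying-cell uptake and scavenging, 10 of the 14 past the filter (median 1.87). Of the macrophage markers, Lyz2 stood at 234 CPM in Kupffer cell nuclei and at 213 CPM in free RNA.

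Among the transcription factors, Tfec and Nr1h3 were at least 2-fold higher in Kupffer cell nuclei than in free RNA, in macrophage nuclei without Kupffer markers and in sinusoidal endothelial nuclei. Tfec, a relative of Mitf that acts in macrophages, stood at 178 CPM (153 to 207) in Kupffer cell nuclei, against 34.1 CPM in macrophage nuclei without Kupffer markers, 46.4 CPM in sinusoidal endothelial nuclei and 7.54 CPM in free RNA. Nr1h3, the oxysterol receptor that helps to fix Kupffer identity, stood at 131 CPM (109 to 156) in Kupffer cell nuclei, against 29.6, 31.6 and 52.3 CPM. Zeb2, which keeps tissue macrophages in their identity, stood at 2110 CPM (2018 to 2204) in Kupffer cell nuclei and at 1870 CPM in macrophage nuclei without Kupffer markers, 1.13-fold (1.05 to 1.21), and at 166 CPM in free RNA. Spi1 (PU.1) was near equal at 147 CPM (123 to 173) in Kupffer cell nuclei and 148 CPM in macrophage nuclei without Kupffer markers. Irf8, a factor of the monocyte lineage, stood at 93.9 CPM (75.4 to 116) and 139 CPM in these 2 groups.

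Among receptors for dying cells and modified proteins, Mertk was at least 2-fold higher than in every group below. This phosphatidylserine-bridging kinase reached 847 CPM (790 to 908) in Kupffer cell nuclei, against 212 CPM in macrophage nuclei without Kupffer markers, 264 CPM in sinusoidal endothelial nuclei and 47.0 CPM in free RNA, or 4.0-fold (3.34 to 4.81) over the first of these. Msr1, a scavenger receptor for modified lipoproteins, stood at 283 CPM (250 to 319), against 120, 219 and 37.7 CPM. The mannose receptor Mrc1 was shared with the endothelium, at 364 CPM (327 to 405) in Kupffer cell nuclei and 392 CPM in sinusoidal endothelial nuclei, while macrophage nuclei without Kupffer markers had 97.8 CPM. Elmo1, which links such receptors to the cytoskeleton, was at 643 CPM (593 to 696) in Kupffer cell nuclei and 630 CPM in macrophage nuclei without Kupffer markers.

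Of 13 iron and haem genes, 3 were at least 2-fold higher than free RNA: Slc11a1, Slc40a1 and Cd163. Over all genes 16.3% were higher and 4.50% lower, so the iron count is not far from that of genes at large. Slc11a1, which pumps metal ions out of the phagosome, stood at 104 CPM (84.9 to 127) in Kupffer cell nuclei, against 34.1 CPM in macrophage nuclei without Kupffer markers and 10.3 CPM in free RNA. The ferritin chains Ftl1 and Fth1 were lower than in free RNA by point value, Ftl1 at 1042 CPM against 2008 CPM and Fth1 at 950 CPM against 1859 CPM. Of 15 complement genes, 8 were at least 2-fold higher and 3 lower than free RNA. Cfp (properdin), which stabilises the alternative pathway, stood at 78.1 CPM (61.3 to 98.0) in Kupffer cell nuclei and at 17.8 CPM in macrophage nuclei without Kupffer markers, while C3, made mostly by hepatocytes, stood at 1833 CPM against 5454 CPM in free RNA.

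Of 14 LXR and cholesterol genes, 5 were at least 2-fold higher than free RNA and 2 lower (median 0.60), with the cholesterol exporter Abcg1 at 143 CPM (120 to 170) in Kupffer cell nuclei against 18.3 CPM, and Apoe at 2865 CPM against 7751 CPM. Of 18 lysosome genes, 5 were higher and 1 lower (median 0.26, below that of all genes, of which 16.3% were higher and 4.50% lower). Of 10 genes of lipid-associated macrophages, 3 were higher and 1 lower (median 0.36, or 0.0016 without the nuclei that held Kcnk13 as their only gate gene). Of 9 checkpoint and co-stimulation genes, 6 of the 8 past the filter were higher (median 2.15). Cd274 (PD-L1), the ligand of the T cell brake PD-1, stood at 88.7 CPM (70.7 to 110) in Kupffer cell nuclei, against 51.9 CPM in macrophage nuclei without Kupffer markers and 11.4 CPM in free RNA, and the co-stimulator Cd86 at 139 CPM (117 to 165) against 84.5 and 7.0 CPM.

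Further lists were summarised against free RNA by count, beside 16.3% of all genes higher, 4.50% lower and a median of 0.29. Lists near those values, such as antigen presentation and the cell cycle, are not set apart from genes at large. Of 11 receptors for signals of the Kupffer niche, 7 were at least 2-fold higher (median 1.5), with Csf1r, the receptor that keeps macrophages alive, at 213 CPM (185 to 245) in Kupffer cell nuclei and 29.3 CPM in free RNA. Of 17 inflammation genes, 5 of 11 past the filter were higher (median 0.82), with the cytokine Il18 at 100 CPM (81.1 to 123) against 18.0 CPM. Of 14 antigen presentation genes, 4 of 12 were higher and 1 lower (median 0.24, or -0.13 with a ceiling of 20000 UMIs). Of 13 interferon-response genes in the file, 4 of 11 were higher (median 0.55), of 11 repair and growth factor genes 4 of 6 (median 1.13, or 0.26 with no filter on low values), and of 12 cell cycle genes 2 of 8 (median 0.44).

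**Figure D2:**
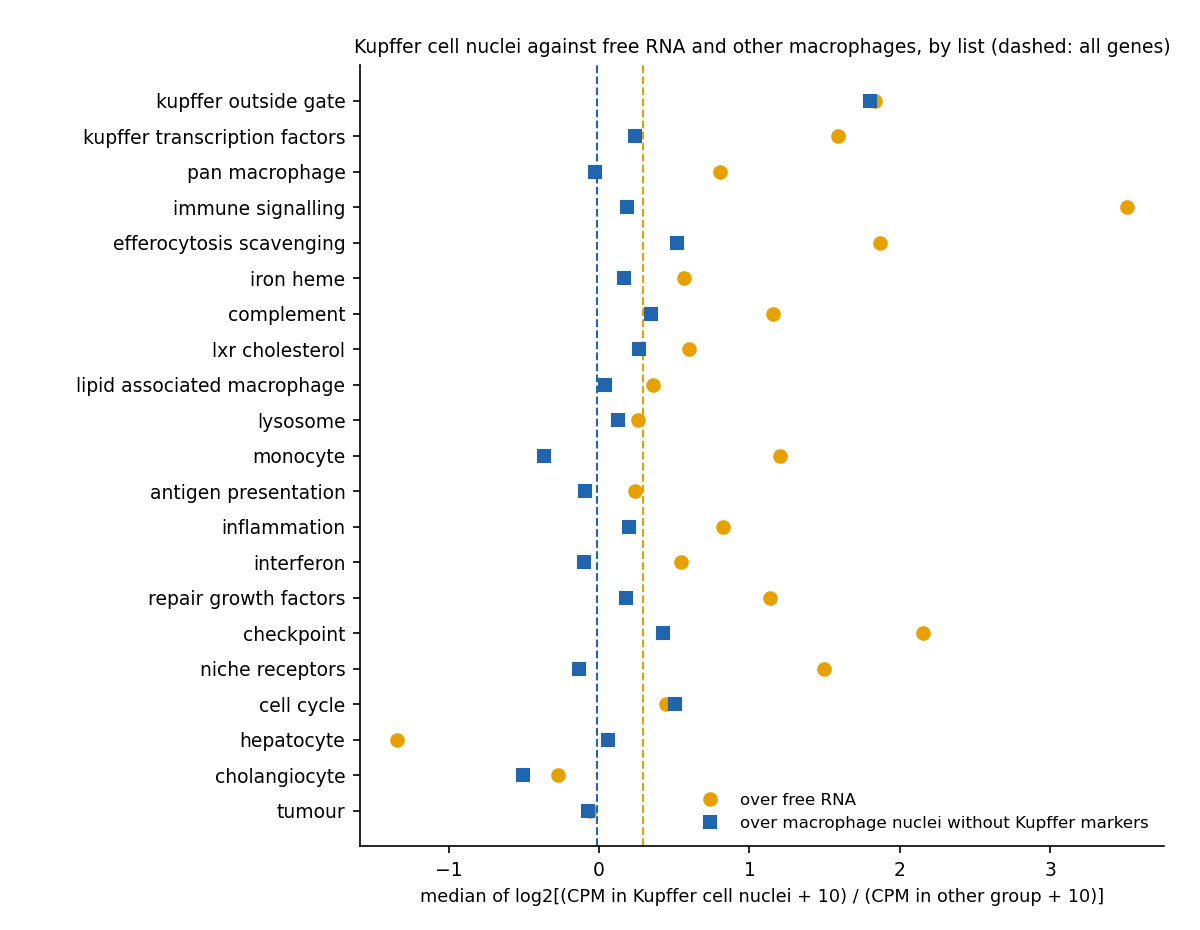
Median log2 ratio of (CPM + 10) over the members of each gene list past the filter, for Kupffer cell nuclei over free RNA (circles) and over macrophage nuclei without Kupffer markers (squares); dashed lines are the medians over all genes (0.29 and -0.02). Immune signalling lies furthest right over free RNA (3.51) but near 0 over other macrophages (0.19), while the outside Kupffer markers lie at 1.83 and 1.80.

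Against macrophage nuclei without Kupffer markers, 1.45% of 10725 genes were at least 2-fold higher in Kupffer cell nuclei and 1.48% at least 2-fold lower. Of the 10 outside markers past the filter there, with Adgre1 left out as a gate gene, 9 were at least 2-fold higher, and Folr2 had a log2 ratio of 0.93. Their median log2 ratio was 1.80, or 1.65 with Cd163 set to its floor in the macrophages. No pan-macrophage gene (median -0.03 over 14) and no immune signalling gene (median 0.19 over 15) reached 2-fold either way. Of 14 transcription factors 4 were higher, among them Nr1h3, Spic and Tfec. Of the 9 monocyte genes outside that group's gate 2 of the 7 past the filter, Plac8 and Vcan, were at least 2-fold lower.

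The 8 genes furthest above macrophage nuclei without Kupffer markers were Ksr2, Vsig4, Ptgs1, Dmpk, Kcna2, Pcolce2, Bank1 and Gbp2b. Gbp2b, an interferon-inducible GTPase, stood at 416 CPM (376 to 459) in Kupffer cell nuclei, against 60.8 CPM in macrophage nuclei without Kupffer markers and 28.7 CPM in free RNA. Bank1, a scaffold best known from B cell receptor signalling, stood at 371 CPM (334 to 412) in 101 Kupffer cell nuclei, against 53.4 and 18.2 CPM. It accounted for most of the 469 CPM of the 6 B cell markers in Kupffer cell nuclei, and at least 2 of the 6 genes were seen in 0.337% of these nuclei after thinning and in 4.38% without it. The scaffold kinase Ksr2 had 113 UMIs in 51 Kupffer cell nuclei and none in the macrophage nuclei without Kupffer markers, by point value at least 26.8-fold higher. The potassium channel gene Kcna2 had 53 UMIs in 37 Kupffer cell nuclei and none in those macrophages, by point value at least 12.6-fold higher. Ptgs1 (cyclooxygenase 1) stood at 142 CPM (119 to 169) against 11.9 CPM, 12-fold (5.93 to 28.4).

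The 8 genes furthest below were Vcan, Clnk, Ccser1, Pcdh17, Cd163l1, Rspo3, Ms4a4c and Erbb4. Vcan, a matrix proteoglycan made by monocytes, had 3 UMIs, or 3.17 CPM, in Kupffer cell nuclei and 57.8 CPM in macrophage nuclei without Kupffer markers, a ratio of 0.0548 (0.0108 to 0.172). Ms4a4c, a monocyte surface gene in the mouse, stood at 14.8 CPM (8.08 to 24.8) against 90.4 CPM. Clnk, an adaptor of immune receptors, had no UMI in Kupffer cell nuclei and 38.5 CPM in macrophage nuclei without Kupffer markers, by point value at least 12.2-fold lower. Erbb4 and Rspo3 stood at 95 and 20.0 CPM in Kupffer cell nuclei, and at 376 and 82.9 CPM in the 9025 other barcodes. Markers of the bile duct epithelium, led by Pkhd1, summed to 618 CPM (569 to 671) in Kupffer cell nuclei, 1166 CPM (1086 to 1251) in macrophage nuclei without Kupffer markers and 1775 CPM in the other barcodes, and their part in these differences was not tested. Without thinning, Pkhd1 was present in 49.4% of the other barcodes and 17.9% of free RNA barcodes. The name bile duct markers, here and below, is that of the list only, and whether their UMIs came from bile duct or tumour cells was not tested.

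**Figure D3:**
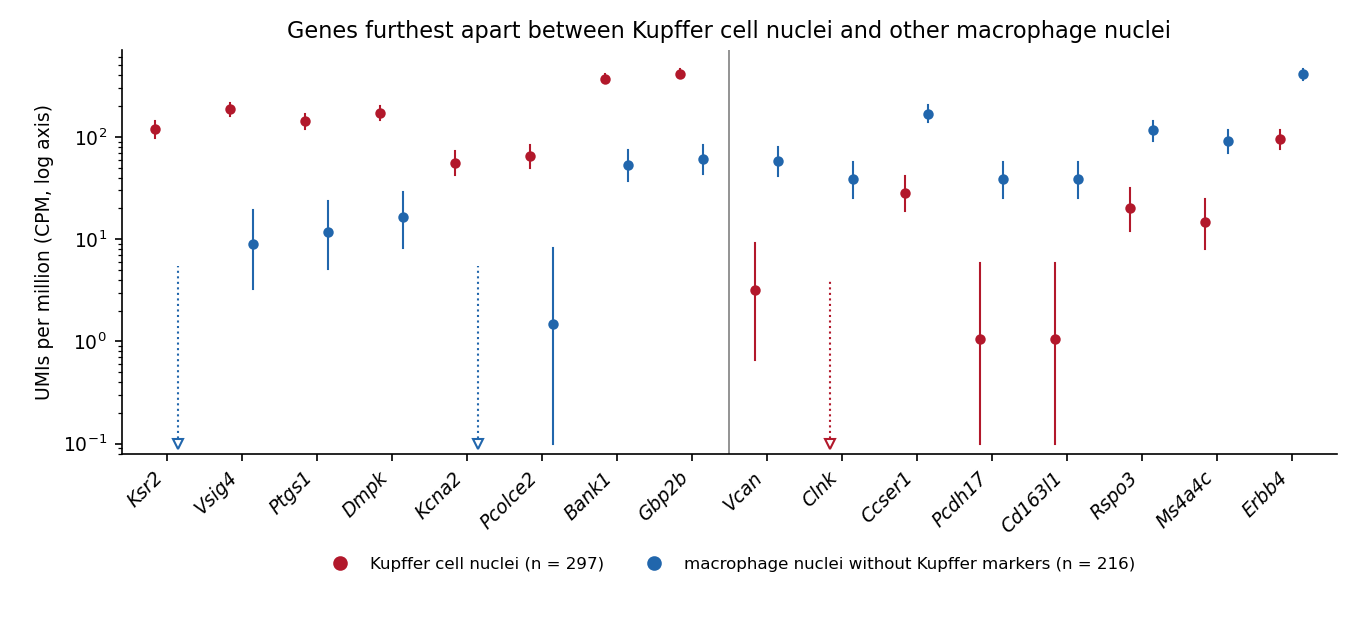
The 8 genes furthest above (left of the line) and the 8 furthest below (right) in Kupffer cell nuclei against macrophage nuclei without Kupffer markers, in CPM on a log axis; bars are exact Poisson 95% intervals, those reaching lower than the axis end near its foot, and open triangles mark 0 UMIs. Ksr2 and Kcna2 had no UMI in the macrophages, and Clnk had none in Kupffer cell nuclei.

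Sinusoidal endothelial nuclei share the scavenging tasks of Kupffer cells but not their lineage. Here 5.46% of 10809 genes were at least 2-fold higher in Kupffer cell nuclei and 5.27% lower. Of the 11 outside markers past the filter 10 were at least 2-fold higher, of 15 pan-macrophage genes 12, and of 8 general endothelial markers all 8 were lower. Timd4 was 67.0-fold (22.6 to 328) higher. Stab2, a hyaluronan receptor of the sinusoidal endothelium and one of that group's gate genes, stood at 180 CPM (154 to 210) in Kupffer cell nuclei, against 53.4 CPM in macrophage nuclei without Kupffer markers and 45.3 CPM in free RNA. The 10 sinusoidal markers summed to 525 CPM (480 to 573) in Kupffer cell nuclei and 249 CPM (213 to 290) in macrophage nuclei without Kupffer markers. The 7 of them that did not choose the sinusoidal nuclei summed to 310 CPM (276 to 348) in Kupffer cell nuclei and 1370 CPM (1297 to 1447) in sinusoidal endothelial nuclei, and 21 of the 297 Kupffer cell nuclei also met the sinusoidal gate.

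Against the 9025 other barcodes within the limits, 5.74% of 10756 genes were at least 2-fold higher and 2.76% lower. There 10 of 11 outside markers, 13 of 15 pan-macrophage genes and all 15 immune signalling genes were at least 2-fold higher. Hepatocyte RNA was present in every group: 10 hepatocyte markers summed to 14586 CPM (14343 to 14831) in Kupffer cell nuclei, 14649 CPM (14362 to 14941) in macrophage nuclei without Kupffer markers, 12729 CPM (12503 to 12958) in sinusoidal endothelial nuclei and 13845 CPM (13800 to 13890) in the other barcodes. That is 0.346 (0.340 to 0.352) of their level in free RNA for Kupffer cell nuclei, 0.347 for macrophage nuclei without Kupffer markers, 0.302 for sinusoidal endothelial nuclei and 0.328 for the other barcodes. The choice of nuclei had limited 3 other hepatocyte genes in all of these groups. Markers of tumour cells and fetal liver, 8 genes with Gpc3 and Afp among them, summed to 374 CPM (336 to 415) in Kupffer cell nuclei, 699 CPM in the other barcodes and 484 CPM in free RNA.

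The 297 nuclei were not alike. Split by the gate genes they held, a division made after the data were seen, 88 nuclei had Kcnk13 together with Clec4f or Cd5l, 152 had Clec4f or Cd5l without Kcnk13, and 57 had Kcnk13 alone. The 12 outside markers summed to 3395 CPM (3203 to 3595) in the 88 nuclei, to 1193 CPM (1091 to 1303) in the 152 and to 722 CPM (606 to 855) in the 57. Without Adgre1 they summed to 482 CPM (387 to 592) in the 57, against 326 CPM (284 to 372) in macrophage nuclei without Kupffer markers. Median depths were 3784, 2056 and 2950 UMIs in the 3 sets.

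Within this split, the outside markers summed highest in the 88 nuclei with Kcnk13 and Clec4f or Cd5l. Vsig4 was present in 42 of them at 372 CPM, Timd4 in 45 at 392 CPM, Slc40a1 in 58 at 945 CPM and C6 in 57 at 834 CPM. Of the 28 Cd163 UMIs 23 lay in 11 of these nuclei, and of the 33 Spic UMIs 25 lay in 17. Nr1h3 stood at 227 CPM, Gbp2b at 785 CPM, Bank1 at 645 CPM and Mertk at 1462 CPM. Their 11 monocyte genes summed to 453 CPM (385 to 530), below free RNA (987 CPM). The fibronectin gene Fn1 alone gave 227 CPM of that sum, and its log2 ratio to free RNA was -1.92. In the same nuclei F13a1 (2.61), Cx3cr1 (1.00), Itgax (0.91) and Plac8 (0.68) were above free RNA. Ccr2, the receptor by which monocytes leave the bone marrow, had 2 UMIs and was below it (-0.65).

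In the 57 nuclei with Kcnk13 alone the low level of several Kupffer genes went against the name Kupffer cell. Vsig4 had 5 UMIs (26.8 CPM), Timd4 7 (37.5 CPM), Nr1h3 5 (26.8 CPM) and Gbp2b 4 (21.4 CPM), and Spic, Fcna and Kcna2 had none. Gbp2b and Kcna2 are not among the outside markers and were named from these data. Not all genes went that way. Tfec was present in 24.6% of the 57 and 8.33% of macrophage nuclei without Kupffer markers, and Mertk in 50.9% and 28.7%. The outside markers Slc40a1 (28.1% and 20.8%) and C6 (38.6% and 26.9%) were also more frequent by point value, with overlapping intervals. They gave 37 and 30 of the 90 UMIs of the outside markers other than Adgre1 in the 57. The list of transcription factors known from Kupffer cells summed to 5837 CPM (5496 to 6194) in the 57 and to 5124 CPM (4888 to 5369) in the 88. It summed to 3615 CPM (3473 to 3761) in macrophage nuclei without Kupffer markers, since it also holds factors shared by macrophages, such as Zeb2, Runx1 and Spi1. Of its 1091 UMIs in the 57, Rbpj gave 90, Nr1h3 5 and Spic none, so the sum is no mark of Kupffer identity. Without Csf1r, which had helped to choose the macrophage nuclei, their pan-macrophage genes summed to 2541 CPM (2318 to 2781), against 1538 CPM (1446 to 1635) in macrophage nuclei without Kupffer markers, and immune signalling to 8405 CPM (7995 to 8832) against 6243 CPM. The monocyte genes other than Ccr2 and Cx3cr1 reached 1931 CPM (1737 to 2141), against 1030 CPM (955 to 1110) in macrophage nuclei without Kupffer markers and 957 CPM (947 to 968) in free RNA. Most of the sum in the 57 came from Fn1 and F13a1. Of its 361 UMIs, Fn1 gave 171 and F13a1 147, and 35 of the F13a1 UMIs lay in a single nucleus. Fn1 was also plentiful in free RNA: without the 57 nuclei it stood at 393 CPM, below free RNA (log2 ratio -1.16). Its part of the sum is therefore no monocyte mark, and whether it came from free RNA was not tested. Plac8 had 5 UMIs and Vcan none, so the sum does not show a rise of the whole list. Ccr2 was present in 11 of the 57 and Cx3cr1, the fractalkine receptor, in 18, against 91 and 68 of the 216 macrophage nuclei, where both genes helped to choose the group.

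Single genes separated the 57 nuclei further. The integrin chain Itgam was present in 20 of them, or 35.1% (22.9 to 48.9), against 4 of the 88 nuclei (4.55%), 5 of the 152 (3.29%) and 24 of the 216 macrophage nuclei without Kupffer markers (11.1%). F13a1, the transglutaminase of monocytes and some tissue macrophages, had 147 UMIs in 15 of the 57 nuclei, of which 35 lay in a single nucleus, and 34 UMIs in 4 of the 88. Fgf13 had 101 UMIs in 17 of the 57, and the Notch effector Rbpj 90 UMIs in 26, or 482 CPM, against 139 CPM in the 88 nuclei and 170 CPM in macrophage nuclei without Kupffer markers. Trem2, a lipid receptor of lipid-associated macrophages, was present in 10 of the 57 (69.6 CPM) and in 3 of the 88 (11.6 CPM). The lysozyme gene Lyz2 stood at 701 CPM in the 57 and at 163 CPM in the 88 nuclei.

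**Figure D4:**
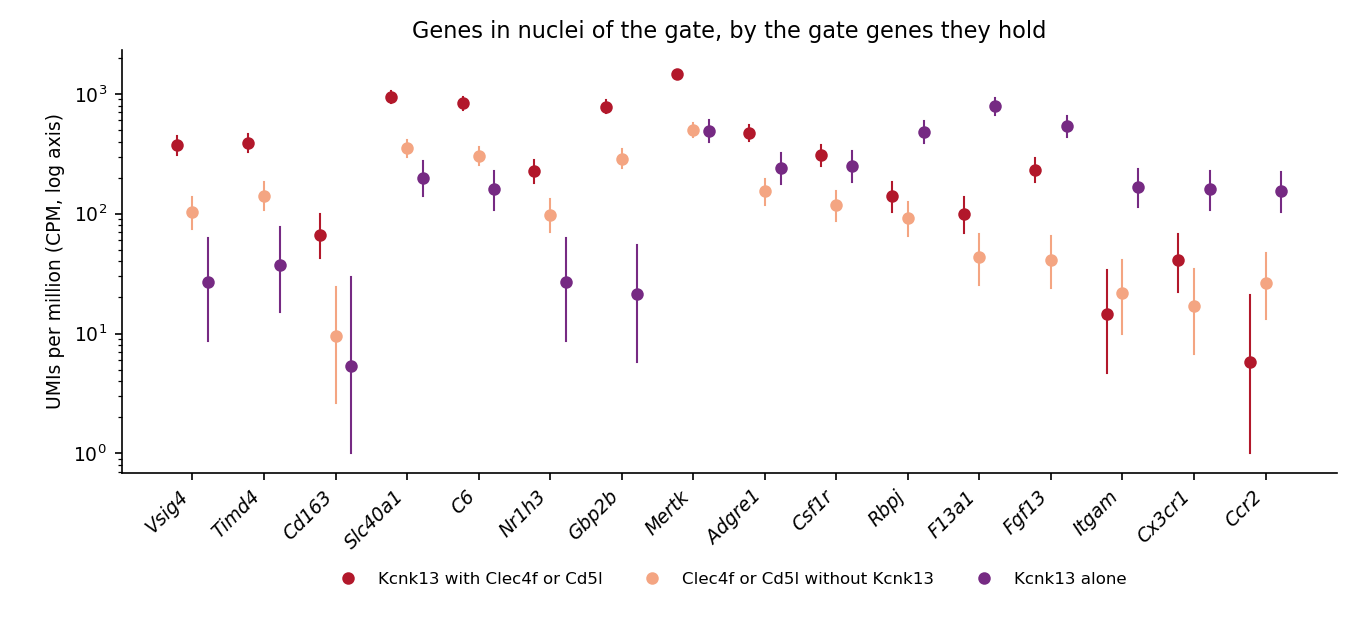
Level of 16 genes (CPM, log axis) in nuclei with Kcnk13 and Clec4f or Cd5l (88), with Clec4f or Cd5l but no Kcnk13 (152) and with Kcnk13 alone (57), with exact Poisson 95% intervals; lower bounds under 1 CPM are drawn to 1. The genes were picked after their values were seen: Vsig4 to Gbp2b are lowest by point value in the nuclei with Kcnk13 alone, and Rbpj to Ccr2 are highest there.

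The 152 nuclei without Kcnk13 divided by the number of gate UMIs. In 53 of them with at least 3 gate UMIs the outside markers summed to 2358 CPM (2117 to 2619) and the pan-macrophage genes to 1633 CPM (1433 to 1853). In the 99 with exactly 2 the outside markers summed to 554 CPM (469 to 651), not far above free RNA (452 CPM) and above the other barcodes (322 CPM). Their pan-macrophage genes summed to 573 CPM (486 to 671), below free RNA (879 CPM) but above the other barcodes (381 CPM). Their immune signalling genes summed to 2149 CPM (1978 to 2332), above the other barcodes (804 CPM) and free RNA (427 CPM). The bile duct markers, whose cells of origin were not tested, stood at 1279 CPM (1148 to 1422) in these 99 nuclei, against 325 CPM in the 53. Clec4f and Cd5l were themselves present in free RNA at 46.9 and 69.2 CPM, while Kcnk13 stood at 5.30 CPM there.

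**Figure D5:**
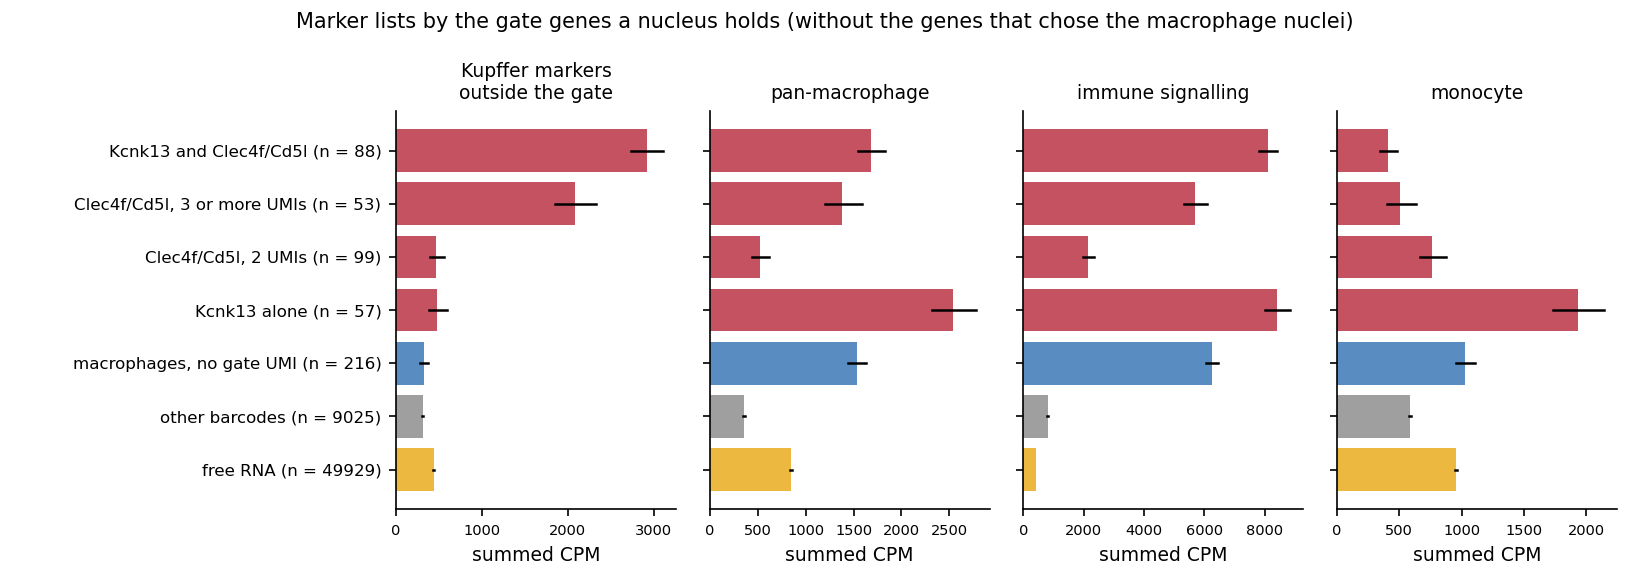
Summed level of 4 gene lists without Adgre1, Csf1r, Cx3cr1 and Ccr2 (CPM, from 0) in the 297 nuclei of the gate, split into 4 sets by the gate genes and UMIs they hold (red), and in macrophage nuclei without Kupffer markers, other barcodes and free RNA; black lines are exact Poisson 95% intervals. The outside Kupffer markers are highest with Kcnk13 and Clec4f or Cd5l (2921 CPM). In the sets of 99 and 57 nuclei they are at 469 and 482 CPM, near free RNA (438 CPM) and above other barcodes (310 CPM) and the macrophage nuclei (326 CPM). The monocyte list is highest with Kcnk13 alone (1931 CPM), where Fn1 (915 CPM) and F13a1 (787 CPM) give most of the sum. Fn1 is also plentiful in free RNA, where the list is at 957 CPM.

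The same gradient appeared along the number of gate UMIs. The outside markers summed to 347 CPM (327 to 369) in the 1051 barcodes with 1 gate UMI, 625 CPM (549 to 708) in nuclei with 2, 1199 CPM (1050 to 1362) with 3 or 4 and 3683 CPM (3487 to 3887) with 5 or more. The bile duct markers summed to 1679, 990, 374 and 343 CPM over the same steps, and the monocyte list to 692, 1031, 1388 and 552 CPM. Fn1 alone gave 254 CPM of the last of these monocyte sums, and was below free RNA there (log2 ratio -1.77). Nuclei with 5 or more gate UMIs were also deeper, with a median of 3909 UMIs against 2134 and 2240 in the other 2 steps above the threshold.

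Several genes of the whole group were therefore carried by a part of it. Without the 57 nuclei with Kcnk13 alone, Vsig4 stood at 225 CPM and Timd4 at 255 CPM, F13a1 at 68.4 CPM in place of 210, Ccr2 at 17.1 CPM in place of 44.3, Rbpj at 113 CPM in place of 186 and Lyz2 at 120 CPM in place of 234, below free RNA (log2 ratio -0.78). Fgf13, one of the 12 genes furthest above free RNA (log2 ratio 3.57), stood at 209 CPM in all 297 nuclei and at 53.0 CPM in those with at least 5 gate UMIs, where it lay below macrophage nuclei without Kupffer markers (log2 ratio -0.39). Pola1, a subunit of DNA polymerase alpha, gave 179 UMIs, more than the 172 of the other 11 cell cycle genes together. Without it those genes summed to 182 CPM (155 to 211) in Kupffer cell nuclei, against 83 CPM (62.7 to 108) in macrophage nuclei without Kupffer markers and 115 CPM (111 to 119) in the other barcodes, and 18 of the 172 UMIs lay in a single nucleus. Mmp12, a macrophage elastase, had 38 of its 81 UMIs in a single nucleus.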

How the data were processed

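Nuclei from frozen mouse liver were sequenced as 10x Genomics 3' libraries. The deposited matrices hold raw UMI counts per gene and barcode with no normalization, per the file headers. Cell Ranger 5.0 and the mm10 build are listed in the submitters' processing notes. The step that joined the 2 samples is not stated there. The called matrix held 17169 barcodes, 32285 genes and 95130408 UMIs. Members and gene lists were chosen with earlier results of these data known.

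Counts were summed per group in Python 3.11.15 (numpy 2.4.6, scipy 1.17.1, pandas 2.3.3). Intervals are exact at 95% (Poisson for levels, Clopper-Pearson for shares, conditional binomial for ratios) and cover counting error only. A gene counted as higher or lower at 2-fold on log2(CPM + 10), among genes with a mean of at least 10 CPM, with no test, since there is 1 pooled sample. The genes that chose either group were left out of counts of genes, medians and summed levels set against it. They were not left out of the shares of barcodes with at least 2 outside markers, which count Adgre1 in every group. Coordinates come from GENCODE for GRCm38 and promoters from RefSeq. Named genes were all members of the Kupffer, transcription factor and pan-macrophage lists, the 4 highest and 2 lowest of each other list against free RNA, and the 8 to 12 furthest genes of each comparison. The text gives the values of a part of these (some are not reported here), and names other genes as chosen after their values were seen. Doublets were not removed: Scrublet (scanpy 1.11.5), run as an alternative on the 9632 barcodes of at least 2000 UMIs and at most 5% mitochondrial UMIs, called 323 (3.35%) but none of the 187 Kupffer cell nuclei among them. The 2-fold calls and the intervals of ratios were tested on simulated counts. Thinning was checked on the Kupffer cell nuclei themselves, and only for the number of UMIs kept. The mitochondrial share of UMIs had a median of 1.42% in Kupffer cell nuclei and 2.69% in free RNA.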

Additional observations from a re-analysis of the deposited data

Results flagged for a closer look

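Above the ceiling of 8000 UMIs, 123 barcodes within the other limits had at least 2 gate UMIs and were left out of the group. They had a median of 14474 UMIs. Their 12 outside markers summed to 1038 CPM (999 to 1078), against 1900 CPM in Kupffer cell nuclei, and their pan-macrophage genes to 671 CPM (640 to 703). Their bile duct markers, whose cells of origin were not tested, summed to 1147 CPM (1106 to 1189).

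Among the 49929 uncalled barcodes used as free RNA, 274 had at least 2 gate UMIs, or 0.549% (0.486 to 0.618). Their outside markers summed to 590 CPM (486 to 710), against 452 CPM over all free RNA, and their hepatocyte markers to 41581 CPM (40668 to 42508), against 42182 CPM.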

How the results depend on the processing

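No paired analysis was possible because both samples are pooled in 1 matrix with no sample name, and no sample could be left out for the same reason. Alternatives named "added" were chosen after the data were seen. The number of Kupffer cell nuclei (297, 1.73% of called barcodes) became 155 (0.903%) with at least 3 gate UMIs, 147 (0.856%) with at least 2 different gate genes, 187 (1.09%) with a floor of 2000 UMIs, 181 (1.05%) with a hepatocyte-gene limit of 5 per 10000 and 92 (0.536%) with at most 1% mitochondrial UMIs. The share became 1.18% with a ceiling of 4000 UMIs, 2.21% with 20000, 2.03% with no hepatocyte-gene limit and 1.49% without nuclei with endothelial UMIs. Among the added settings, 87 nuclei (0.507%) had at least 5 gate UMIs, 88 (0.513%) had Kcnk13 and Clec4f or Cd5l, and the share without nuclei with Kcnk13 alone was 1.40%. The thinned share with at least 2 outside markers (18.5%) became 29.7, 27.2, 13.4 and 25% with at least 3 gate UMIs, 2 gate genes, the ceiling of 4000 and at most 1% mitochondrial, and 39.1 and 28.4% with at least 5 gate UMIs and with Kcnk13 and Clec4f or Cd5l.

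With a filter of 50 CPM, which tests fewer genes, 5, 5, 4 and 5 outside markers were at least 2-fold higher than free RNA, other barcodes, macrophage nuclei and sinusoidal endothelial nuclei, in place of 8, 10, 9 and 10. For all genes, the cause of the moves below was not tested, and smaller sets of nuclei have noisier ratios. Genes at least 2-fold higher than free RNA numbered 1684, but 1012 with free RNA of 1 to 100 UMIs and 938 with the filter of 50 CPM. Genes lower than free RNA numbered 464, but 700 (2 gate genes), 240 (ceiling 4000), 769 (hepatocyte limit 5), 999 (1% mitochondrial), 203 (nuclei weighted equally), 817 (pseudocount 1), 957 (at least 5 gate UMIs) and 918 (Kcnk13 and Clec4f or Cd5l). Against the other barcodes, 617 higher became 307 (filter 50) and 938 (at least 5), and 297 lower became 672 (at least 3), 575 (2 gate genes), 536 (ceiling 4000), 40 (ceiling 20000), 468 (equal weights), 580 (pseudocount 1), 148 (filter 50), 923 (at least 5) and 863 (Kcnk13 and Clec4f or Cd5l). Against macrophage nuclei without Kupffer markers, 156 higher became 309, 328, 324, 249, 514, 368, 68, 493 and 482 with at least 3 gate UMIs, 2 gate genes, ceiling 4000, hepatocyte limit 5, 1% mitochondrial, pseudocount 1, filter 50, at least 5 gate UMIs, and Kcnk13 and Clec4f or Cd5l. The 159 lower genes became 369, 324, 316, 282, 519, 449, 43, 611 and 567 in the same order, 26 with the ceiling of 20000 and 273 with equal weights. Against sinusoidal endothelial nuclei, 590 higher became 910 (pseudocount 1), 277 (filter 50), 919 (at least 5) and 888 (Kcnk13 and Clec4f or Cd5l), and 570 lower became 263 (ceiling 20000), 884, 310, 934 and 906.

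Of 382 gene ratios of at least 2-fold, between 0 and 111 no longer were under a given alternative, most with the filter of 50 CPM, and Scrublet's calls removed no nucleus. Ratios of at least 2-fold whose log2 turned sign were Ccr2 over free RNA (-0.057 with 2 gate genes, -0.65 with Kcnk13 and Clec4f or Cd5l) and, in the last set, over other barcodes (-0.50) and sinusoidal nuclei (-0.14). With at least 5 gate UMIs, Itgax turned against free RNA (-0.20) and other barcodes (-0.025), Ebf1 against free RNA (-0.050; -0.0085 with Kcnk13 and Clec4f or Cd5l, where Flt1 was at -0.14) and Fgf13 against macrophages (-0.39). Without nuclei with endothelial UMIs, Stab2 was at -0.50 over free RNA and -0.70 over macrophages, a fall built into that setting since Stab2 chose the nuclei dropped, F8 at -0.26 over macrophages and Galnt18 at -0.17 over free RNA. With the ceiling of 4000, Reln and Pdgfrb were at -0.011 and -0.21 over free RNA and D5Ertd615e at 0.51 over macrophages. With 1% mitochondrial, Cd163l1 and Gm10827 were at 0.30 over sinusoidal nuclei, and with free RNA of 1 to 100 UMIs, Cmss1 was at 0.26. Of the 460 gene ratios under 2-fold, between 0 and 115 had the opposite sign under a given alternative, most with the ceiling of 4000 UMIs. With at least 5 gate UMIs, Pkhd1 (-0.18), Gpc3 (-0.59), Ahnak2 (-0.56) and Ptprb (-0.40) were below free RNA, and Lyz2 was (-0.78) without nuclei with Kcnk13 alone.

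Of the medians of gene lists, at most 15 of 123 had the opposite sign under a given alternative. Over free RNA, the median ranged from 1.5 to 2.77 for the outside markers, 1.22 to 1.99 for transcription factors, 0.57 to 1.15 for pan-macrophage genes, 3.17 to 3.85 for immune signalling, 1.63 to 2.09 for scavenging, 1.88 to 3.02 for checkpoint genes, 0.0016 to 0.54 for lipid-associated macrophages, 0.046 to 0.51 for the lysosome, -0.13 to 0.67 for antigen presentation, 0.30 to 1.89 for inflammation, 0.39 to 0.98 for interferon, 0.26 to 1.39 for repair, 0.35 to 1.41 for the cell cycle, 0.95 to 1.67 for niche receptors, 0.52 to 0.78 for LXR genes and -0.094 to 1.29 for complement. Over macrophage nuclei without Kupffer markers, it ranged from 1.37 to 2.64 for the outside markers, -0.22 to 0.48 for pan-macrophage genes and -0.28 to 0.67 for immune signalling.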
